A study of Mus musculus with 15 samples.

Results

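Group 2 innate lymphoid cells (ILC2s) are lung-resident lymphocytes that lack rearranged antigen receptors and release the type 2 cytokines IL-5 and IL-13. The 9 genes described here belong to the programmes of the other helper-like innate lymphoid cells: Tbx21, Eomes and Ifng to ILC1s and natural killer (NK) cells, and Ahr, Il23r, Il17a, Il17f, Il22 and Ltb to ILC3s. They were chosen by symbol, and each was read from the array feature annotated with that symbol alone, of which every one of the 9 had exactly 1. They are 9 of 22180 genes with such a feature, and 7 of the 9 were bright enough to be tested, together with 16257 genes in all. Il22 and Eomes were too dim on all arrays and are given by level.

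The cells were lung ILC2s isolated from effector adult mice, from naive adult mice and from neonates, and total RNA was hybridised to 15 Affymetrix arrays. Effector adults were females (3 arrays) and males (3 arrays) given IL-33, an alarmin released by epithelium to which ILC2s respond, intranasally on 3 days in a row, with cells taken 1 day after the last dose. Naive adults were untreated females (3 arrays) and males (3 arrays) aged 8 weeks, and neonates (3 arrays) were untreated, aged 10 days and of unlabelled sex. The labels call the arrays biological replicates and give neither strain, genotype, sorting markers, mice per array nor batches, nor an age in weeks for the effector adults. There was no vehicle-dosed group, so IL-33, intranasal dosing and any batch that followed the groups cannot be told apart, and p-values measure the spread between these arrays.

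Innate lymphoid lineages are defined by transcription factors and by the cytokines they release, and lineages can interconvert when the cytokines around them change. T-bet, encoded by Tbx21, and its relative Eomes drive the interferon gamma programme of ILC1s and NK cells, which IL-12 and IL-18 induce. The IL-17 and IL-22 programme of ILC3s is induced by IL-23 and IL-1β and helped by the ligand-activated receptor Ahr. ILC2s that have gained interferon gamma or IL-17 are known from infected and inflamed lungs, and Ahr is also known to act within ILC2s.

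Values are log2 expression levels, on which 1 unit is a doubling of signal. The median of all features lay between 4.44 and 4.64 on the 15 arrays. Against a list of 19 ILC2 genes, all 16 that could be read lay above background in every condition, and Gata3, the lineage's defining transcription factor, averaged 8.72 ± 0.18 in effector adults (SD, n = 6), 8.83 ± 0.22 in naive adults (SD, n = 6) and 8.75 ± 0.07 in neonates (SD, n = 3). Background was set from 1394 olfactory and vomeronasal receptor genes, which lymphocytes are not known to use. The upper quartile of their mean levels was 3.36 in effector adults, 4.07 in naive adults and 3.71 in neonates, and a level at or under it is called in the background range. Over the 387 of these genes that pass the brightness filter, the upper quartile was 4.35 in effector adults, 5.22 in naive adults and 4.68 in neonates. By either limit Ahr and Ltb lay above background in every condition, and Il22 and Eomes lay within it in every condition.

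The 9 genes did not move as a block. Between effector and naive adults 1 of the 7 tested genes rose, Ahr, and 1 fell, Ltb, where 23.7% of all 16257 genes rose and 10.9% fell (34.6% called) at an adjusted p under 0.05. Naive adults were lower than neonates in 2 of the 7, Ahr and Il17f, and higher in none, where 6.04% of all genes were lower and 4.12% higher (10.2% called). Effector adults were lower than neonates in 2 of the 7, Il17f and Ltb, and higher in none, where 5.93% of all genes were lower and 14.7% higher (20.6% called). The median difference over all 9 genes was 0.26 for effector minus naive adults, -0.46 for naive adults minus neonates and -0.09 for effector adults minus neonates, against 0.033, -0.0243 and 0.0334 over all genes tested. The 3 comparisons share arrays in pairs and are not independent of each other.

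**Figure D1:**
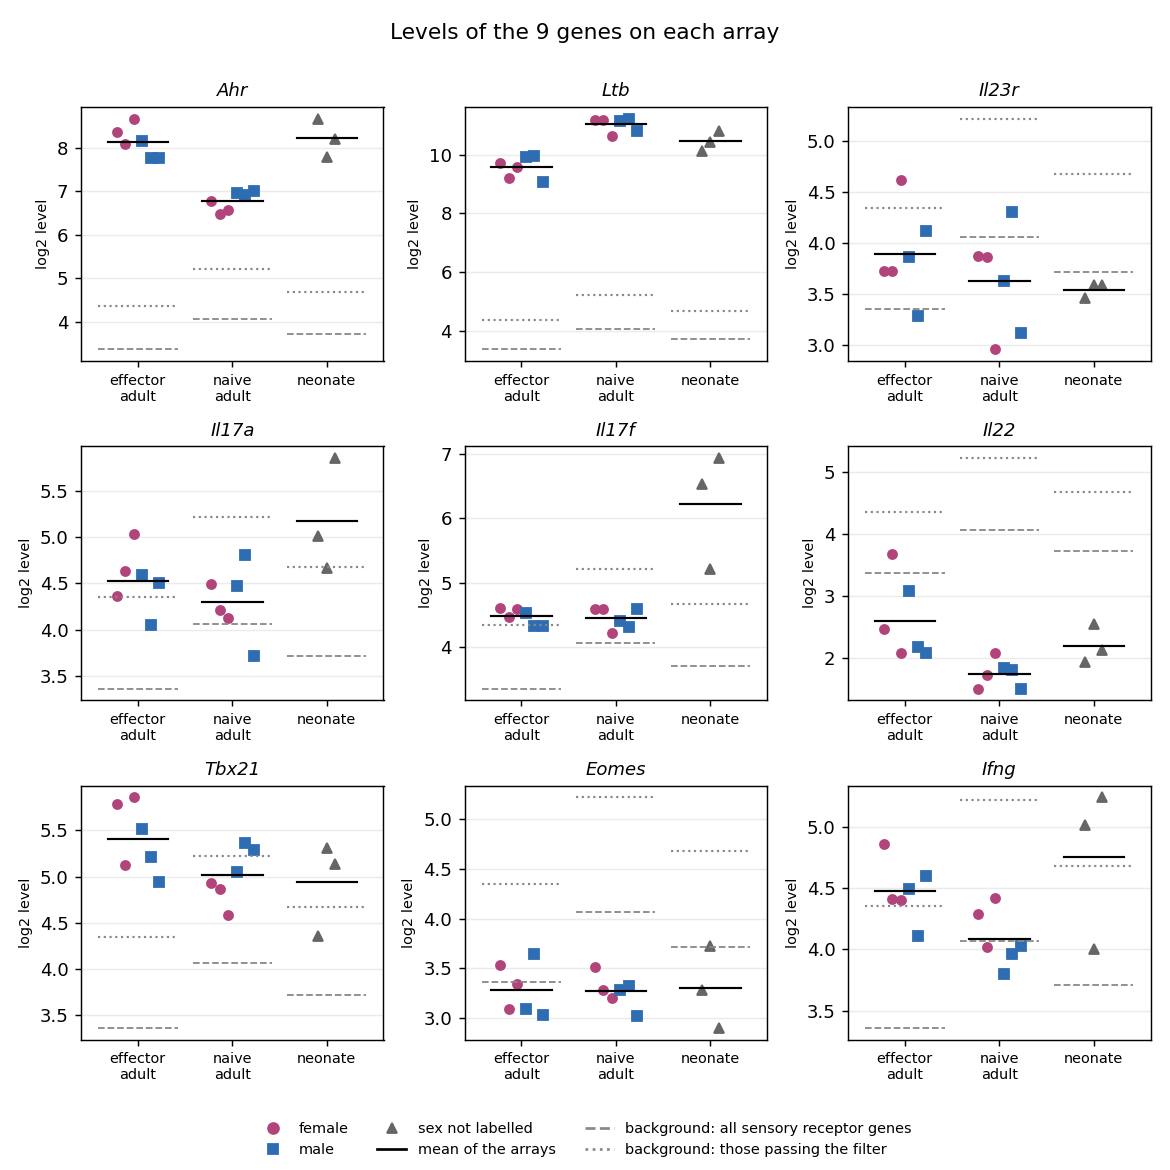
Log2 level (vertical axis) of each of the 9 genes on each of the 15 arrays, in effector adults, naive adults and neonates. Circles are females, squares males and triangles neonates, black bars are means over the arrays of a condition, dashed lines mark the upper quartile of all sensory receptor genes and dotted lines that of the sensory receptor genes passing the filter. Ahr is low only in naive adults, Ltb is lowest in effector adults, Il17f is raised only in neonates, and Il22 and Eomes stay near or below the dashed lines.

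Ahr encodes the aryl hydrocarbon receptor, a transcription factor activated by dietary, microbial and pollutant ligands that maintains ILC3s and their IL-22. In effector adults its lowest, median and highest levels were 7.78, 8.12 and 8.66. Naive adults had 6.48, 6.86 and 7.02, and the 3 neonatal arrays had 8.68, 7.80 and 8.20. The naive adult arrays lay below all others, and the effector and neonatal arrays overlapped. In bulk RNA fewer cells of a type and less RNA per cell cannot be told apart, here or below. Ahr was higher in effector than in naive adults by 1.35 ± 0.15 on the log2 scale (standard error of the limma fit, as for all differences below), a fold of 2.55 with an adjusted p of 9.31e-06. Naive adults were lower than neonates by a difference of -1.44 ± 0.19, a fold of 2.71 (limma, adjusted p = 0.000202). Effector adults and neonates differed by -0.09 ± 0.19, with a 95% interval of -0.49 to 0.31 (limma, adjusted p = 0.784).

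The Ahr response to IL-33 was called in both sexes. In females the effector arrays had 8.38, 8.09 and 8.66, and the naive arrays 6.79, 6.48 and 6.57. In males the effector arrays had 8.16, 7.78 and 7.78, and the naive arrays 6.96, 6.92 and 7.02. Effector and naive arrays did not overlap in either sex, and the difference was 1.76 ± 0.22 in females (limma, adjusted p = 5.54e-05) and 0.94 ± 0.22 in males (limma, adjusted p = 0.00542). The male call was lost without the 3 arrays that correlated least with the others (naive male arrays 1 and 2 and neonatal array 2), where the difference was 0.89 with an adjusted p of 0.0516 in the limma fit. The response in females exceeded that in males by 0.82 ± 0.31, which failed the correction over all genes (limma, unadjusted p = 0.0174, adjusted p = 0.867).

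Genes of the receptor's own machinery were measured beside it. Of 9 tested Ahr partners and targets, 3 rose and 2 fell in effector over naive adults, with a list median of 0.29, where 34.6% of all genes were called. Ptges3, which encodes the p23 cochaperone of the cytosolic receptor complex, rose by 1.50 ± 0.24, and Hsp90aa1, another chaperone of that complex, by 0.75 ± 0.12. Tiparp, a target gene whose product represses the receptor, fell by 1.17 ± 0.17. It averaged 8.09 in effector adults, 9.25 in naive adults and 10.28 in neonates, and each step between these conditions was called. Cyp1a2 fell by 0.49 ± 0.15, from a mean of 4.70 in naive to 4.21 in effector adults. Both means lay under the upper quartile of the sensory receptor genes passing the filter (5.22 and 4.35), which fell as well. The part of this lower background in the fall of Cyp1a2 was not tested. Cyp1a1, the classical target of the activated receptor, averaged 4.32 ± 0.21 in effector adults (SD, n = 6), 4.52 ± 0.23 in naive adults (SD, n = 6) and 4.40 ± 0.40 in neonates (SD, n = 3). It was not called in any comparison of conditions and lay under the same limit in each. Between naive adults and neonates 1 of the 9 was called, Tiparp, by -1.03 ± 0.20, and the list median was -0.30, where 10.2% of all genes were called.

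Ltb encodes lymphotoxin beta, the membrane-anchoring subunit of the lymphotoxin heterotrimer, by which ILC3s and lymphoid tissue inducer (LTi) cells signal to stromal cells. Its lowest, median and highest levels were 9.09, 9.65 and 9.96 in effector adults. Naive adults had 10.63, 11.17 and 11.24, and the neonatal arrays 10.14, 10.44 and 10.80. All effector arrays lay below all naive adult and neonatal arrays, and naive adults and neonates overlapped. Effector adults were lower than naive adults by a log2 difference of -1.46 ± 0.18, a fold of 2.74 (limma, adjusted p = 2.47e-05), and lower than neonates by -0.87 ± 0.22, a fold of 1.83 (limma, adjusted p = 0.0131). The call against neonates was lost without neonatal array 3 (-0.70, adjusted p = 0.0569), with array weights (-0.85, adjusted p = 0.0589) and with adult males only (-0.79, adjusted p = 0.0507), all in the limma fit. Naive adults and neonates differed by 0.58 ± 0.22 (limma, adjusted p = 0.116).

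The fall of Ltb had nearly the same size in both sexes. The difference between effector and naive arrays was -1.50 ± 0.26 in females (limma, adjusted p = 0.00112) and -1.41 ± 0.26 in males (limma, adjusted p = 0.00115). The responses differed by -0.09 ± 0.37, with a 95% interval of -0.87 to 0.69. Without the 3 least correlated arrays the male difference was -1.16, with an adjusted p of 0.0661 in the limma fit.

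Ltb shares its stretch of chromosome 17 with other genes of the tumour necrosis factor family. Tnf, the gene on one side of Ltb in the RefSeq gene order, encodes the inflammatory cytokine TNF and fell with it, by 1.93 ± 0.30 (limma, adjusted p = 0.000153). Lta, which follows Tnf and encodes the secreted partner subunit of lymphotoxin, averaged 5.19 ± 0.41 in effector adults, 5.22 ± 0.27 in naive adults (SD, n = 6 each) and 5.34 ± 0.20 in neonates (SD, n = 3), a difference of -0.03 between effector and naive adults (limma, adjusted p = 0.921). Lst1, the neighbour on the other side, rose by 1.57 (limma, adjusted p = 0.000959). The genes beside Ltb therefore moved in both directions.

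Among 12 tested lymphotoxin ligands, receptors and signalling genes, 4 rose and 1 fell in effector over naive adults, with a median of 0.24, where 23.7% of all genes rose and 10.9% fell. The risers were the TNF receptor gene Tnfrsf1b (1.0 ± 0.31), the LIGHT receptor gene Tnfrsf14 (0.64 ± 0.17), the noncanonical NF-κB subunit gene Nfkb2 (0.61 ± 0.17) and the TNF receptor gene Tnfrsf1a (0.51 ± 0.15), and the gene that fell was Tnf. Against neonates, naive adults were lower in 2 of the 12, Tnfrsf1b (-1.43 ± 0.38) and the noncanonical NF-κB subunit gene Relb (-0.57 ± 0.14), with a list median of -0.32, where 6.04% of all genes were lower.

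**Figure D2:**
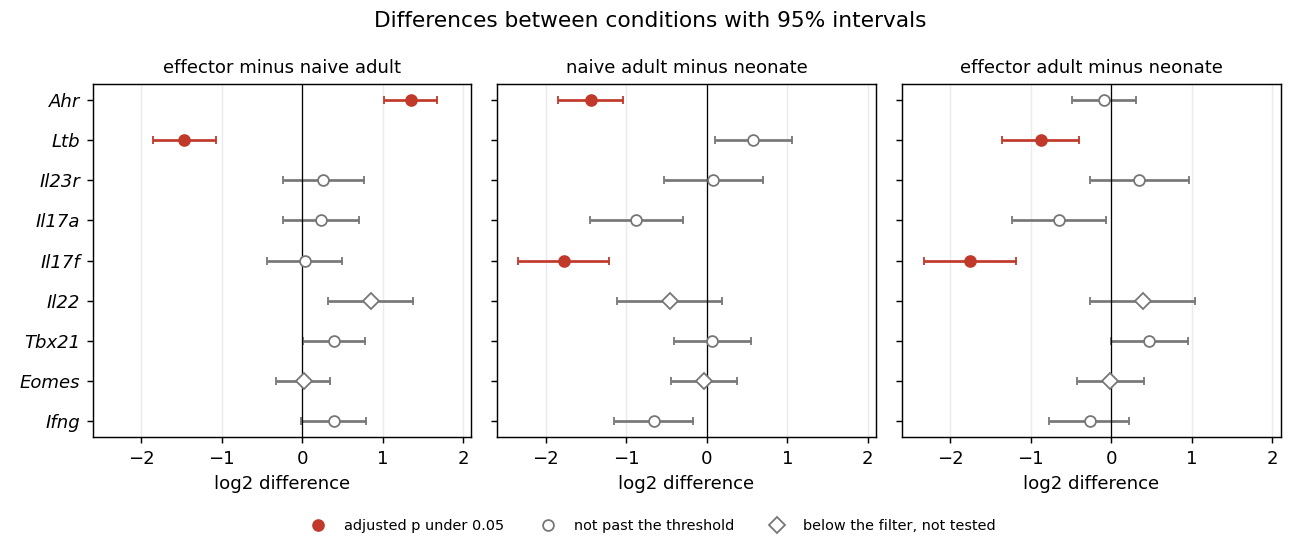
Log2 difference (horizontal axis) for each of the 9 genes in the 3 comparisons of conditions, with 95% intervals from the fit across all genes. Filled red circles are called genes, open circles tested genes that did not pass the threshold and diamonds the genes below the filter, which were not tested. The called differences are Ahr at 1.35 and -1.44, Ltb at -1.46 and -0.87 and Il17f at -1.77 and -1.75.

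Of the type 17 genes, Il17f set the neonatal cells apart. Il17a and Il17f encode IL-17A and IL-17F, related cytokines that act on epithelium through a shared receptor and recruit neutrophils, and Il22 encodes IL-22, which acts on epithelial barriers. The effector adult arrays had Il17f levels of 4.34, 4.51 and 4.61 as lowest, median and highest. The naive adult arrays had 4.22, 4.50 and 4.59, and the neonatal arrays 6.53, 5.22 and 6.94. Every neonatal array lay above every adult array, and both kinds of adult overlapped.

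Il17f was lower in effector adults than in neonates by a log2 difference of -1.75 ± 0.27, a fold of 3.36 (limma, adjusted p = 0.000447). Naive adults were lower than neonates by -1.77 ± 0.27, a fold of 3.42 (limma, adjusted p = 0.000669). Both calls held in all 27 alternatives in which each was computed, with differences of -2.28 to -1.42 for naive adults minus neonates and -2.25 to -1.39 for effector adults minus neonates. Effector and naive adults differed by 0.03 ± 0.22, with a 95% interval of -0.44 to 0.49 (limma, adjusted p = 0.935). In adults the Il17f mean of 4.48 in effector and 4.46 in naive arrays lay above the upper quartile of all sensory receptor genes, but in naive adults under that of those passing the filter.

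Il17a showed smaller separations. Effector adults had levels of 4.05, 4.55 and 5.04 as lowest, median and highest, naive adults 3.71, 4.34 and 4.81, and the neonatal arrays 5.01, 4.67 and 5.86. The neonatal arrays overlapped both kinds of adult. In naive adults the Il17a mean of 4.31 lay under the upper quartile of the sensory receptor genes passing the filter, 5.22. Naive adults minus neonates gave -0.88 ± 0.27, just short of the threshold (limma, adjusted p = 0.0519), and effector adults minus neonates gave -0.65 ± 0.27 (limma, adjusted p = 0.102). The naive adult difference was called without neonatal array 2 (-1.13, adjusted p = 0.0281), without naive male array 2 (-1.0, adjusted p = 0.0321), after a further quantile normalization (-0.92, adjusted p = 0.0455) with a trended and robust prior (-0.88, adjusted p = 0.0414) and without the 3 least correlated arrays (-1.44, adjusted p = 0.00962), all in the limma fit. Without those 3 arrays the effector adult difference was called too (-0.90, adjusted p = 0.0276, limma). Effector and naive adults differed by 0.23 ± 0.22 (limma, adjusted p = 0.453).

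In the RefSeq gene table Il17a and Il17f lie next to each other on chromosome 1, with 0 genes between them. Their upstream sequences are shown because these neighbours share a locus and had their highest means in neonates. Each line gives the 250 bases before the transcription start on the gene's own strand, from RefSeq's GRCm38.p6 tables, chr1:20730655-20730904 on the plus strand for Il17a and chr1:20784271-20784520 on the minus strand for Il17f. Capitals mark a match to AGGTCA, the half-site that retinoic acid receptor-related orphan (ROR) receptors bind, or to its reverse complement.
Il17a: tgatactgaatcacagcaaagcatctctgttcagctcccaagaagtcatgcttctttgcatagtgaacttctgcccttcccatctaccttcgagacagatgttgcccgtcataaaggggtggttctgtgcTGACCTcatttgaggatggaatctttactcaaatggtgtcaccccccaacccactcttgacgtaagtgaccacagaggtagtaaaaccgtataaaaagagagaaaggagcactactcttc
Il17f: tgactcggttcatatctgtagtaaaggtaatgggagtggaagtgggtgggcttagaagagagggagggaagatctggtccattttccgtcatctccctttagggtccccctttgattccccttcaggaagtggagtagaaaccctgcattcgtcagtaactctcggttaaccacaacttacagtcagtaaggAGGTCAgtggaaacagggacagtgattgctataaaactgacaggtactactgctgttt
The match in Il17a lay on the opposite strand, 120 to 115 bases before the start, and that in Il17f on the same strand, 58 to 53 bases before the start. AGGTCA, searched on both strands, occurred in 14.0% of all 32851 promoter windows of this length, so a match in any one window is common. Windows were found for 8 of the 9 genes, all but Ahr. Il23r held 2 matches to AGGTCA and Il22 held 1 to the GATA motif AGATAA, which 10.0% of windows hold. No window of the 8 genes held GCGTG, the core bound by AHR with its partner ARNT (28.2% of windows), or the T-box core GGTGTGA (3.3% of windows).

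Il23r and Il22 gave little signal. Il23r encodes the IL-23 receptor chain that sustains ILC3s and type 17 T cells, and it passed the filter on 3 arrays only. Its levels ran 3.29, 3.80 and 4.62 in effector adults, 2.96, 3.75 and 4.31 in naive adults (lowest, median and highest) and 3.46, 3.59 and 3.59 on the neonatal arrays, with all groups overlapping. The naive adult and neonatal means lay in the background range, and effector minus naive adults gave 0.26 ± 0.24 (limma, adjusted p = 0.413). Il22 ran 2.07, 2.32 and 3.67 in effector adults, 1.50, 1.76 and 2.07 in naive adults (lowest, median and highest) and 1.93, 2.54 and 2.12 on the neonatal arrays. All Il22 means lay in the background range. Effector minus naive adults was 0.85 for Il22, and with no filter it was called (limma, adjusted p = 0.0193), although neither mean rose out of background. Only 1 effector array, at 3.67, lay above the background range.

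Of the 9 genes, the 3 cytokine genes with their highest means in neonates, Il17f, Il17a and Ifng, each had their lowest neonatal level on neonatal array 2. So did Ahr, and outside the 9 the ILC2 genes Il13 (10.00, 9.53 and 10.07 on neonatal arrays 1, 2 and 3), Il5 (9.60, 8.35 and 8.89) and Gata3. Tbx21, Ltb, Il22 and Il23r were lowest on neonatal array 1, and Eomes and Rora on neonatal array 3. Genes of T cells, which also make IL-17 and interferon gamma, were read beside the 3 cytokine genes. Cd3e, a chain of the T cell receptor complex, had 8.10, 6.85 and 7.22 on neonatal arrays 1, 2 and 3, against 5.72 to 6.37 in effector adults and 5.60 to 6.71 in naive adults. It was lower than in neonates by -1.40 ± 0.25 in effector adults (limma, adjusted p = 0.00121) and by -1.21 ± 0.25 in naive adults (limma, adjusted p = 0.00587). Of 10 T cell markers 1 was lower in naive adults than in neonates, Cd3e, where 6.04% of all genes were lower. In effector adults 2 were lower than in neonates, Cd3e and Cd3g, where 5.93% of all genes were lower. Ubash3a, Themis and Cd4 went the other way, with means of 5.82, 5.26 and 4.45 in naive adults and 5.38, 5.09 and 4.38 in neonates. The rest of the 10 had higher means in neonates than in naive adults.

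The summed linear signal of the 10 T cell markers ran from 860 to 1246 in effector adults, 1293 to 1767 in naive adults and 1419 to 2018 in neonates. Most of this sum on every array was Cd3g alone. Cd3g was bright in every condition, averaging 9.65 in effector adults, 10.22 in naive adults and 10.37 in neonates, and was not called between naive adults and neonates. A second list held 4 genes used as markers of γδ T cells, the innate-like T cells that are a main source of IL-17 in young lungs. Their summed linear signal ran from 117 to 144 in effector adults, 141 to 203 in naive adults and 167 to 230 in neonates. Of these 4, Zbtb16 was called lower in effector adults than in neonates (-1.12 ± 0.30), and none was called by limma between naive adults and neonates, with 1 at an unadjusted p under 0.05. Sox13 averaged 5.44 in effector adults, 5.62 in naive adults and 5.40 in neonates, while Blk and Cd163l1 had their highest means in neonates. No marker of either list was in the background range in neonates, set at 3.71 from all sensory receptor genes. Cd4 (4.38), Cd8a (4.11), Cd8b1 (4.14) and Blk (4.46) lay under the neonatal upper quartile of those passing the filter, 4.68. Of 6 epithelial markers 1 was called between naive adults and neonates, Sftpc, encoding surfactant protein C, which was lower in naive adults by -1.98 ± 0.46 and had 8.02, 7.64 and 6.86 on neonatal arrays 1, 2 and 3. The others were not called, and Sftpb averaged 4.82 in naive adults and 4.46 in neonates, Cdh1 5.92 in naive adults and 5.71 in neonates, and Epcam 4.36 in naive adults and 4.41 in neonates. The summed linear signal of the 6 ran from 156 to 264 in effector adults, 170 to 307 in naive adults and 260 to 432 in neonates. The part of these cells in the neonatal Il17f, Il17a and Ifng levels was not tested.

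**Figure D3:**
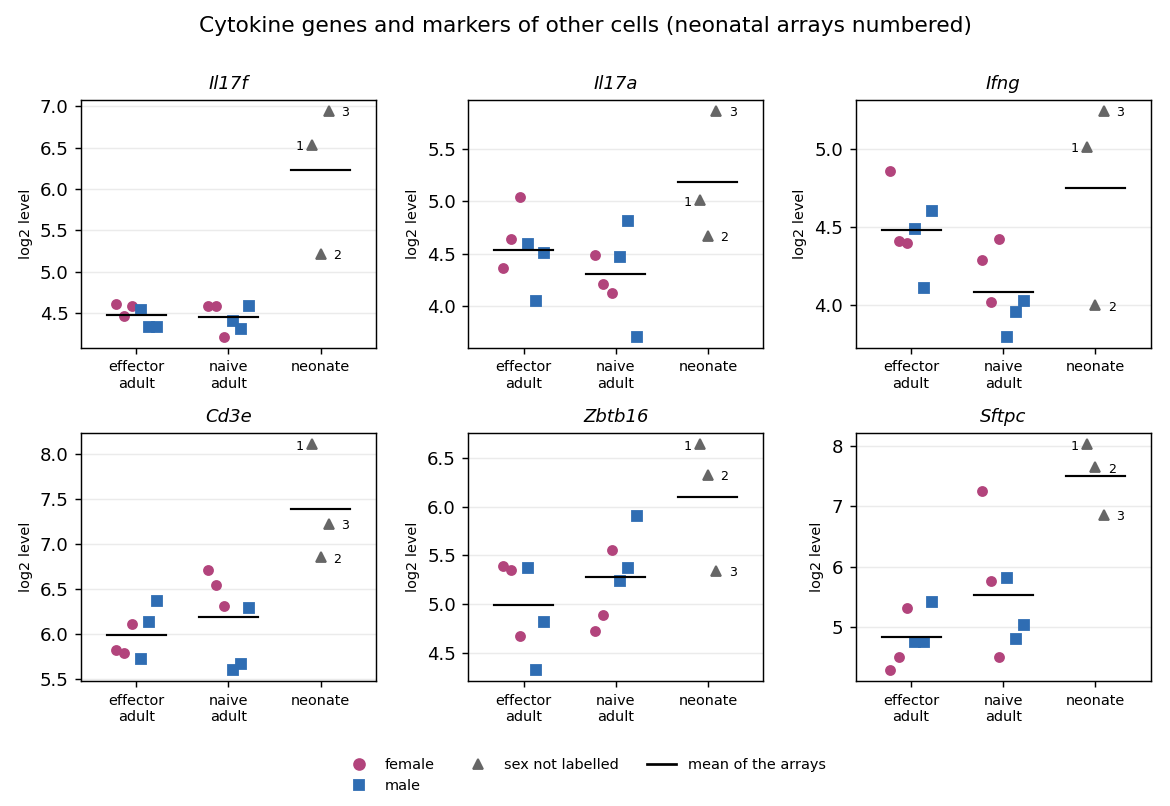
Log2 level (vertical axis) of Il17f, Il17a and Ifng (upper row) and of Cd3e, Zbtb16 and Sftpc (lower row) on each array in effector adults, naive adults and neonates. The genes of the lower row come from the lists of T cell, γδ T cell and epithelial markers. Each was called lower in naive or effector adults than in neonates. Other genes of these lists, not drawn, such as Ubash3a, Sox13 and Sftpb, had lower means in neonates than in naive adults. Neonatal triangles carry their array number and bars are means. Neonatal array 2 is the lowest neonatal array for the 3 cytokine genes and for Cd3e, while Zbtb16 and Sftpc are lowest on neonatal array 3. The type 2 cytokine genes Il13 and Il5, not drawn, are also lowest on neonatal array 2.

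Of 18 tested genes of the wider ILC3 and type 17 programme, 5 rose and 1 fell in effector over naive adults, with a median of 0.30. That is close to the share of all genes, of which 23.7% rose and 10.9% fell. Irf4 (3.69 ± 0.24) and Batf (2.00 ± 0.14), transcription factors of activated lymphocytes, Tnfsf4 (3.42 ± 0.46), the OX40 ligand by which ILC2s costimulate T cells, Hif1a (1.36 ± 0.19), the oxygen-sensing factor, and Stat3 (0.60 ± 0.12), which relays IL-6 and IL-23, rose. Kit, the stem cell factor receptor found on ILC3s and some ILC2s, fell by 0.67 ± 0.13. Against neonates, naive adults were lower in 6 of the 18 and higher in none, with a median of -0.30, where 6.04% of all genes were lower and 4.12% higher. Those with the largest differences were Irf4 (-2.66 ± 0.29), Hif1a (-1.37 ± 0.23) and Csf2 (-1.12 ± 0.15), which encodes GM-CSF. Rora, the ROR factor that ILC2s themselves require, averaged 7.0 in both effector and naive adults and 7.73 in neonates and was lower in both kinds of adult, by -0.73 ± 0.15 each. Ccr6, a chemokine receptor of LTi cells, lay in the background range in every condition. Of 5 tested ILC3 and LTi markers, none was called by limma between naive adults and neonates, with 1 at an unadjusted p under 0.05, and Kit alone fell in effector over naive adults.

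Of the 10 tested receptors and relatives of IL-17 and IL-22, 1 rose and 1 fell in effector over naive adults, where 34.6% of all genes were called. They were Il17ra (0.41 ± 0.13), the receptor chain shared by IL-17A and IL-17F, and Il17rc (-0.40 ± 0.13), its partner. Il17rc averaged 4.43 in effector and 4.83 in naive adults, the latter under the upper quartile of the sensory receptor genes passing the filter. By limma none was called between naive adults and neonates, with 2 of unadjusted p under 0.05, or between effector adults and neonates, with 1.

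On the ILC1 side neither Tbx21 nor Ifng was called by limma in a comparison of conditions, although Tbx21 for effector minus naive adults (0.0455) and Ifng for naive adults minus neonates (0.0114) had unadjusted p-values under 0.05, and Eomes lay below the filter. Tbx21 ran 4.94, 5.37 and 5.86 in effector adults and 4.58, 4.99 and 5.36 in naive adults (lowest, median and highest), and 4.36, 5.31 and 5.14 on the neonatal arrays, with all groups overlapping. Effector minus naive adults was 0.40 ± 0.18 (limma, adjusted p = 0.105). It was called after centring each array on its median (0.54, adjusted p = 0.0291) and without effector female array 2 (0.51, adjusted p = 0.0437), both in the limma fit. Naive adults minus neonates was 0.07 ± 0.22 (limma, adjusted p = 0.873), and effector adults minus neonates 0.47 ± 0.22 (limma, adjusted p = 0.149).

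Tbx21 separated the female groups but not the male ones. Its mean lay under the upper quartile of the sensory receptor genes passing the filter in naive females (4.79 against 5.03) and in naive males (5.23 against 5.43). In females the effector arrays had 5.79, 5.13 and 5.86, above the naive arrays at 4.93, 4.87 and 4.58, a difference of 0.80 ± 0.26 that missed the threshold (limma, adjusted p = 0.0506). It passed the threshold in 9 of 25 alternatives. In males the effector arrays had 5.52, 5.21 and 4.94 and the naive arrays 5.05, 5.36 and 5.29, which overlapped, and the difference was -0.01 ± 0.26. The difference between the responses, 0.81 ± 0.36, failed the correction over all genes (limma, unadjusted p = 0.0422, adjusted p = 0.909).

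Eomes, which marks conventional NK cells more than ILC1s, averaged 3.29 ± 0.26 in effector adults, 3.27 ± 0.16 in naive adults (SD, n = 6 each) and 3.30 ± 0.41 in neonates (SD, n = 3). All means lay in the background range, and the groups overlapped. NK cell markers were also low: among 7 measured genes, 2 lay in the background range in effector adults, 4 in naive adults and 2 in neonates, and the summed linear signal ran from 91 to 130, 113 to 136 and 109 to 133 in these conditions. Ncr1, which encodes the NKp46 receptor of NK cells and ILC1s, averaged 3.50 in effector adults, 3.86 in naive adults and 3.83 in neonates and did not pass the filter.

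Ifng encodes interferon gamma, the defining cytokine of ILC1s and NK cells. It ran 4.11, 4.45 and 4.86 in effector adults and 3.80, 4.03 and 4.42 in naive adults (lowest, median and highest), and 5.01, 4.0 and 5.24 on the neonatal arrays. Neonatal arrays 1 and 3 lay above all adult arrays and neonatal array 2 among the naive adults. Effector minus naive adults was 0.39 ± 0.19 (limma, adjusted p = 0.123), naive adults minus neonates -0.66 ± 0.23 (limma, adjusted p = 0.0818) and effector adults minus neonates -0.27 ± 0.23 (limma, adjusted p = 0.430).

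Leaving out neonatal array 2 changed all 3 Ifng calls. Without it the limma fit called effector minus naive adults at 0.39 (adjusted p = 0.0313), naive adults minus neonates at -1.04 (adjusted p = 0.00372) and effector adults minus neonates at -0.65 (adjusted p = 0.0349). The naive adult Ifng mean of 4.09 lay barely above the upper quartile of all sensory receptor genes and under that of those passing the filter, 5.22. The upper quartile of all sensory receptor genes was itself lower in effector adults, at 3.36, than in naive adults, at 4.07. The part of this shift in background in the small differences of Ifng, Tbx21 and Il22 was not tested. After centring on array medians Ifng was called in effector over naive adults (0.53, adjusted p = 0.0452), as it was with only the groups compared in the fit (0.39, adjusted p = 0.0319), both by limma. Without the 3 least correlated arrays the limma fit called naive adults minus neonates (-0.99, adjusted p = 0.0167) and effector adults minus neonates (-0.65, adjusted p = 0.0361).

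Receptors for the cytokines that induce interferon gamma were called where Ifng was not. Of 25 tested genes of the ILC1 and NK programme 10 rose and 3 fell in effector over naive adults, with a median of 0.06, where 23.7% of all genes rose and 10.9% fell. The largest rises were in Il18r1 (1.95 ± 0.21), the IL-18 receptor chain that ILC2s also carry, Il2rb (1.56 ± 0.21), the shared receptor chain of IL-2 and IL-15, Txk (1.23 ± 0.21), a T cell kinase, and Il12rb1 (1.14 ± 0.19), the receptor chain shared by IL-12 and IL-23. The 3 that fell were Klrb1c (-0.63 ± 0.21), Klrd1 (-0.61 ± 0.19) and Nkg7 (-0.63 ± 0.14), all associated with NK cells. Klrb1c averaged 4.43 in naive and 3.79 in effector adults, and Klrd1 4.09 and 3.49, near the background range. These means lay under the upper quartile of the sensory receptor genes passing the filter (5.22 in naive and 4.35 in effector adults), which fell as well. The part of this lower background in the falls of Klrb1c and Klrd1 was not tested. Naive adults were lower than neonates in 4 of the 25, Il2rb (-1.46 ± 0.26), Il18rap (-1.11 ± 0.27), Il18r1 (-1.02 ± 0.26) and Il12rb1 (-0.77 ± 0.23), and higher in none, where 6.04% of all genes were lower. The other chain of the IL-12 receptor, Il12rb2, averaged 3.56 in effector adults, 3.78 in naive adults and 3.71 in neonates and did not pass the filter.

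Across 12 tested receptors and transducers of polarising cytokines, some of them shared with these lists, 6 rose and 1 fell in effector over naive adults, with a median of 0.36, where 23.7% of all genes rose and 10.9% fell. Il18rap, the partner chain of the IL-18 receptor, rose by 1.01 ± 0.22, and Il6st, the gp130 chain shared by IL-6 family receptors, fell by 1.14 ± 0.22. Between naive adults and neonates 7 of the 12 were lower and 1, Il6st (1.02 ± 0.27), was higher, with a median of -0.72, where 6.04% of all genes were lower and 4.12% higher. Of 7 tested genes of interferon gamma reception and its early signalling, 3 rose and none fell in effector over naive adults, where 23.7% of all genes rose. They were Irf8 (1.19 ± 0.19) and Irf1 (0.70 ± 0.15), transcription factors that interferon gamma induces, and the kinase gene Jak2 (0.53 ± 0.14). Compared with neonates, naive adults were lower in Jak2 (-0.80 ± 0.18) and higher in Socs1 (0.80 ± 0.16), a feedback inhibitor of cytokine signalling.

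**Figure D4:**
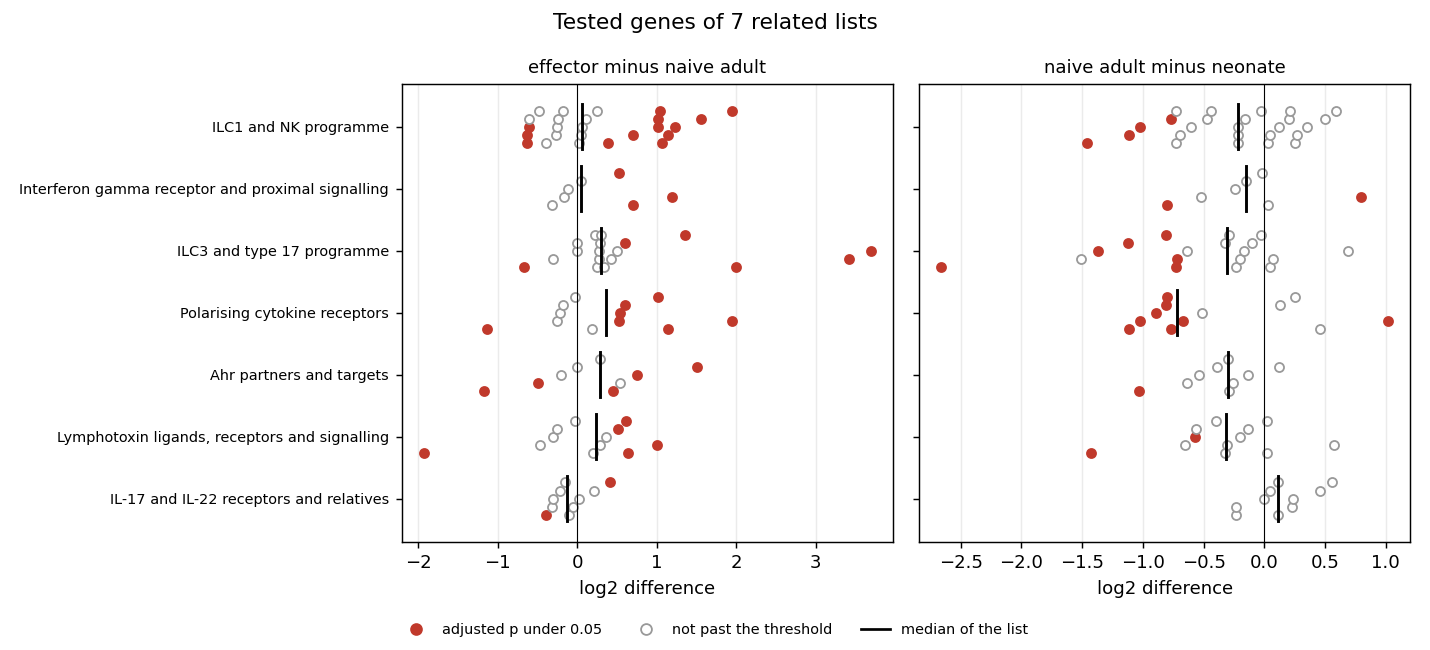
Log2 difference (horizontal axis, scaled separately in each panel) of the tested genes of 7 related lists for effector minus naive adults and for naive adults minus neonates. Each circle is a gene, filled red where called, and black bars are list medians. The polarising cytokine receptors have the highest list median for effector minus naive adults, at 0.36, and the lowest for naive adults minus neonates, at -0.72.

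The type 2 cytokine genes of the same cells were read for scale. Il13 rose by 3.07 ± 0.14 in effector over naive adults and was lower in naive adults than in neonates by -2.36 ± 0.17. Il5 rose by 1.46 ± 0.21 in effector over naive adults and was lower in naive adults than in neonates by -1.95 ± 0.26. Gata3 differed by -0.11 ± 0.12 between effector and naive adults and by 0.08 ± 0.15 between naive adults and neonates.

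Sex was set against the 9 genes within each adult condition. In naive adults none of the 7 tested genes was called between females and males in the limma fit, none had an unadjusted p under 0.05, and 0.209% of all genes were called. The largest differences were lower female means of Tbx21 (-0.44 ± 0.26; limma, unadjusted p = 0.11, adjusted p = 0.610) and Ahr (-0.35 ± 0.22; limma, unadjusted p = 0.127, adjusted p = 0.637). In effector adults none of the 7 was called in the limma fit, 1 had an unadjusted p under 0.05 (Ahr, 0.47 ± 0.22), and 0.0308% of all genes were called. In the response to IL-33, 2 of the 7 tested genes were called within females, where 14.0% of all genes were called, and 2 within males, where 24.9% were called. These were Ahr and Ltb in each sex. No gene of the 16257 was called for a difference between the responses of the sexes in the limma fit, although 866 genes, Ahr and Tbx21 among them, had an unadjusted p under 0.05.

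The genes whose levels followed each of the 9 most closely over the 15 arrays are given as a description, since the points share conditions. Map3k8 (r = 0.970), St3gal1 (0.940) and Sla (0.938) came nearest to Ahr by Pearson correlation, and Map3k8 averaged 8.32 in effector adults, 7.09 in naive adults and 8.61 in neonates. Sema4a (0.966), H2-Ke6 (0.959) and Il27ra (0.952) came nearest to Ltb, and Sema4a averaged 6.78 in effector adults, 8.16 in naive adults and 7.83 in neonates. Cwc25 (0.928), Igf2bp3 (0.921) and Stk17b (0.903) came nearest to Il17f, and Cwc25 averaged 6.35 in effector adults, 6.29 in naive adults and 7.75 in neonates.

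The dimmer genes had looser neighbours. Hlf (0.919), Npnt (0.875) and Ndrg2 (0.863) followed Ifng, and Rundc3a (0.858), Slc47a1 (0.843) and Fam149a (0.828) followed Il17a. Lair1 (0.859), Rtf2 (0.829) and Zmiz2 (0.810) followed Tbx21, and Olfm2 (0.811), Nap1l3 (0.759) and Nmnat3 (0.753) followed Il23r. Il22 and Eomes, in the background range throughout, were given no such genes.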

How the data were processed

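The deposited values were log2 expression levels of 15 arrays, which per the submitters' processing notes the authors made with Affymetrix Expression Console and RMA. RMA corrects background, equalises the distributions of the arrays and summarises probes on the log2 scale, which compresses differences of dim genes. The sources used here give no versions.

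Of 41345 features, 23521 carried exactly 1 gene symbol, 1814 several and 16010 none, and only the first were used. Identifiers of 23328 features matched the RefSeq gene table, with 0 symbols updated. Features were kept when above the 40th percentile of its array on at least 3 arrays, and the feature with the highest mean stood for its gene, leaving 16257 genes. limma 3.58.1 in R 4.3.3 fitted 5 group means to all 15 arrays and moderated the variances (degrees of freedom were 10 residual and 5.05 prior). The 8 two-sided comparisons weighted the sexes equally, p was adjusted over the 16257 genes by Benjamini and Hochberg's method, and genes were called at an adjusted p under 0.05. Intervals are 95% intervals of this fit, and the number of arrays limits precision. No batch is given in the labels. The pipeline was tested on simulated data.

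The 9 genes and the lists were chosen with earlier results of these data known. Beyond the 9, the named genes were Gata3, Rora, Il5 and Il13, up to 4 called genes with the largest effector response and up to 3 with the largest neonatal difference per list, or 2 by mean level where none was called, and the 3 genes most correlated with each of the 9. Genes named outside this rule (Stat3, Tnfrsf1a, Klrb1c, Klrd1, Nkg7, Il12rb1 against neonates, Cyp1a1, Ccr6, Lta, Lst1, Ncr1, Il12rb2 and the markers of other cells) were chosen after their values were seen. Alternatives were no filter, a filter at the 60th percentile, centring, a further quantile normalization, a trended and robust prior, array weights, a replicate block, only the groups compared, the mean of a gene's features, leaving out arrays, and adults of 1 sex. Figures were drawn with matplotlib 3.10.9.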

Additional observations from a re-analysis of the deposited data

How the results depend on the processing

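The differences of Ahr and Ltb between effector and naive adults were called in all 25 alternatives computed for each, and those of Ahr between naive adults and neonates and of Il17f between neonates and either kind of adult in all 27. Over the 7 tested genes, 1372 differences were recomputed in alternatives, 1343 stayed on their side of the threshold with no called value changing sign, 24 gained and 5 lost a call, 0 reversed, and 46 uncalled values changed sign. Il22, untested in the fit reported, was called for effector minus naive adults with no filter (0.85, adjusted p = 0.0193). Centring arrays on their medians moved the median of all genes in effector minus naive adults to 0.17, against 0.03 as deposited, and the share of called genes that were higher to 83.0%, against 68.5%. That share became 83.6%, against 71.2%, in effector adults minus neonates, 83.9%, against 73.1%, in females, and 86.8%, against 74.9%, in males. Centring gave 4 called members for effector minus naive adults. Array weights gave 705 called genes for naive adults minus neonates, 2068 genes and 1 member for effector adults minus neonates, 3745 genes for the response in females, 19 for naive and 11 for effector females minus males. With only the groups compared these counts were 676 for naive adults minus neonates, 8 for naive and 8 for effector females minus males. Without the 3 least correlated arrays, 4 members were called for naive adults minus neonates, 4 for effector adults minus neonates and 0 for the response in males, for which 2224 genes were called. Adults of females only gave 935 genes for naive adults and 1942 for effector adults against neonates, and adults of males only gave 1 member for effector adults against neonates. For the difference between the responses of the sexes, a 60th percentile filter, centring, array weights and leaving out those 3 arrays each gave 1 called gene.

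Leaving out 1 array at a time gave 1027 (without neonatal array 1) to 1849 genes and 2 to 4 (without neonatal array 2) members for naive adults minus neonates, 2067 (without neonatal array 2) to 3758 genes and 1 (without neonatal array 3) to 3 members for effector adults minus neonates, and 4665 to 5958 genes and 2 to 3 members for effector minus naive adults. It gave 1361 (without effector female array 2, and 1433 without array 3) to 2527 genes for the response in females, 2603 (without effector male array 3) to 4391 in males and 0 to 7 (without naive male array 3) for their difference, and 16 (without naive female array 3) to 84 (without naive male array 3) for naive females minus males. With the replicate block, 1 gene was called for the difference between responses, 1533 for naive adults minus neonates and 5511 for effector minus naive adults, and no call of the 9 genes changed. Deviations of same-numbered arrays correlated at -0.11 to 0.10 over 30 pairs, against -0.14 to 0.17 for arrays of other numbers. Of the 15 arrays 5 correlated best with their own number. With 3 arrays per group and no batch in the labels, these values cannot show whether same-numbered arrays were handled together. Where a mean lay in the background range, as for Il22 and Eomes, no order of expression between conditions was read from it. Il22 levels ran from 2.07 to 3.67 in effector adults and from 1.50 to 2.07 in naive adults, with both means in that range. The causes of the shifts between alternatives were not tested.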
